A study of Macaca mulatta with 16 samples.

Results

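The genes described here move sodium, chloride and water across the epithelium of the fetal lung. They were chosen by function, as the rows of the count table whose rhesus Ensembl identifiers map to 9 symbols: the epithelial sodium channel subunits SCNN1A, SCNN1B and SCNN1G, the sodium pump subunit ATP1B1, the chloride transport genes CFTR, SLC12A2 and ANO1, and the aquaporins AQP3 and AQP4. All 9 have a row among the 22515 genes of the table, and all 9 passed the filter on low counts that 19199 genes passed. Lung RNA of 16 rhesus macaque fetuses was sequenced, with 1 library per fetus. The 4 preterm controls were delivered at 131 to 135 days of gestation and the 2 term controls at 156 and 157 days, and neither group received an intervention. The 4 LPS 16 hours fetuses were exposed to 1 mg of intraamniotic LPS, the endotoxin of E. coli, and delivered 16 hours later at 130 or 131 days. The 3 LPS 5 days fetuses received the same dose and were delivered after 5 days, at 131 to 134 days. The 3 LPS + Beta-Ac 5 days fetuses received the same LPS, their dams received 0.125 mg/kg of intramuscular betamethasone acetate (Beta-Ac), and they were delivered after 5 days at 131 or 132 days. Animals with Beta-Ac alone were not analysed here, so an effect of the steroid without LPS is outside these comparisons. LPS was a single dose into the amniotic fluid, and no untreated animal was set aside for the 16-hour interval, so both LPS times share the same preterm controls.

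Before birth the lung epithelium secretes chloride into the future air spaces, water follows, and the liquid keeps the lung expanded. Chloride enters the cell through the cotransporter encoded by SLC12A2 and leaves through apical channels such as CFTR and the calcium-activated channel ANO1. Around birth the epithelium turns to absorption: sodium enters through the epithelial sodium channel, built of the subunits encoded by SCNN1A, SCNN1B and SCNN1G, and the sodium pump, of which ATP1B1 encodes a beta subunit, moves it out on the other side. Corticosteroids and beta-adrenergic hormones are known regulators of this change. Aquaporins are water channels. AQP3 is known from basal cells of the airways and AQP4 from basolateral membranes of lung epithelial cells.

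Library totals were 20169363 to 28348816 counts in preterm controls, 20214144 to 27408405 in the LPS and LPS + Beta-Ac groups at 5 days, and 25883623 and 27616930 at term. The LPS 16 hours libraries were deeper, at 30596371 to 48052891 counts, and did not overlap with any other group in depth, so depth and the 16-hour exposure cannot be told apart by design. The animal numbers in the labels are also lower in this group than in all others. The labels give no batch, and a difference in time or handling of this group cannot be told apart from the exposure. With every library thinned to the total of the smallest, the counts of called genes given for the 9 genes were the same in all 8 comparisons. Values are CPM, counts relative to the TMM-scaled library total, and tests are limma on log2 CPM over all 16 animals, adjusted over 19199 genes by Benjamini-Hochberg. A gene is called when its adjusted p is below 0.05 and its change is at least 2-fold. Levels are not corrected for gene length and are compared between animals, not between genes. The epithelial, alveolar type 1 and alveolar type 2 markers were present in every group, as the labelled tissue asks. Among the 9 genes, the rarest reads behind a value were 18 counts of AQP3 and 28 counts of CFTR, both in preterm control 1. Some genes of the other lists rest on fewer reads at their lowest. In whole lung, fewer cells of a type and less RNA per cell cannot be told apart.

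LPS 16 hours changed more of these genes than any other exposure. Against preterm controls, ATP1B1 and CFTR rose and ANO1 fell, which is 3 of 9 genes called, where 14.4% of all genes tested were called. Without the fold minimum 6 of 9 passed, with SCNN1A, AQP4 and SLC12A2 also lower, where 38.5% of all genes passed. At 5 days none of the 9 was called after LPS alone, where 4.83% of all genes were called, and CFTR alone was called after LPS + Beta-Ac, where 6.49% were called. At adjusted p alone these background shares were 14.7% and 17.3%, and the counts of the 9 stayed at 0 and 1. None of the 9 was called between term and preterm controls, where 2.07% of all genes were called. At an unadjusted p under 0.05, 2 of 9 passed after LPS at 5 days (28% of all genes), 3 of 9 after LPS + Beta-Ac (30.1%), 1 of 9 at term (18.9%) and 8 of 9 after LPS at 16 hours (47%). The median log2 fold change of the 9 at 16 hours was -0.55, beside -0.09 over all genes tested.

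**Figure D1:**
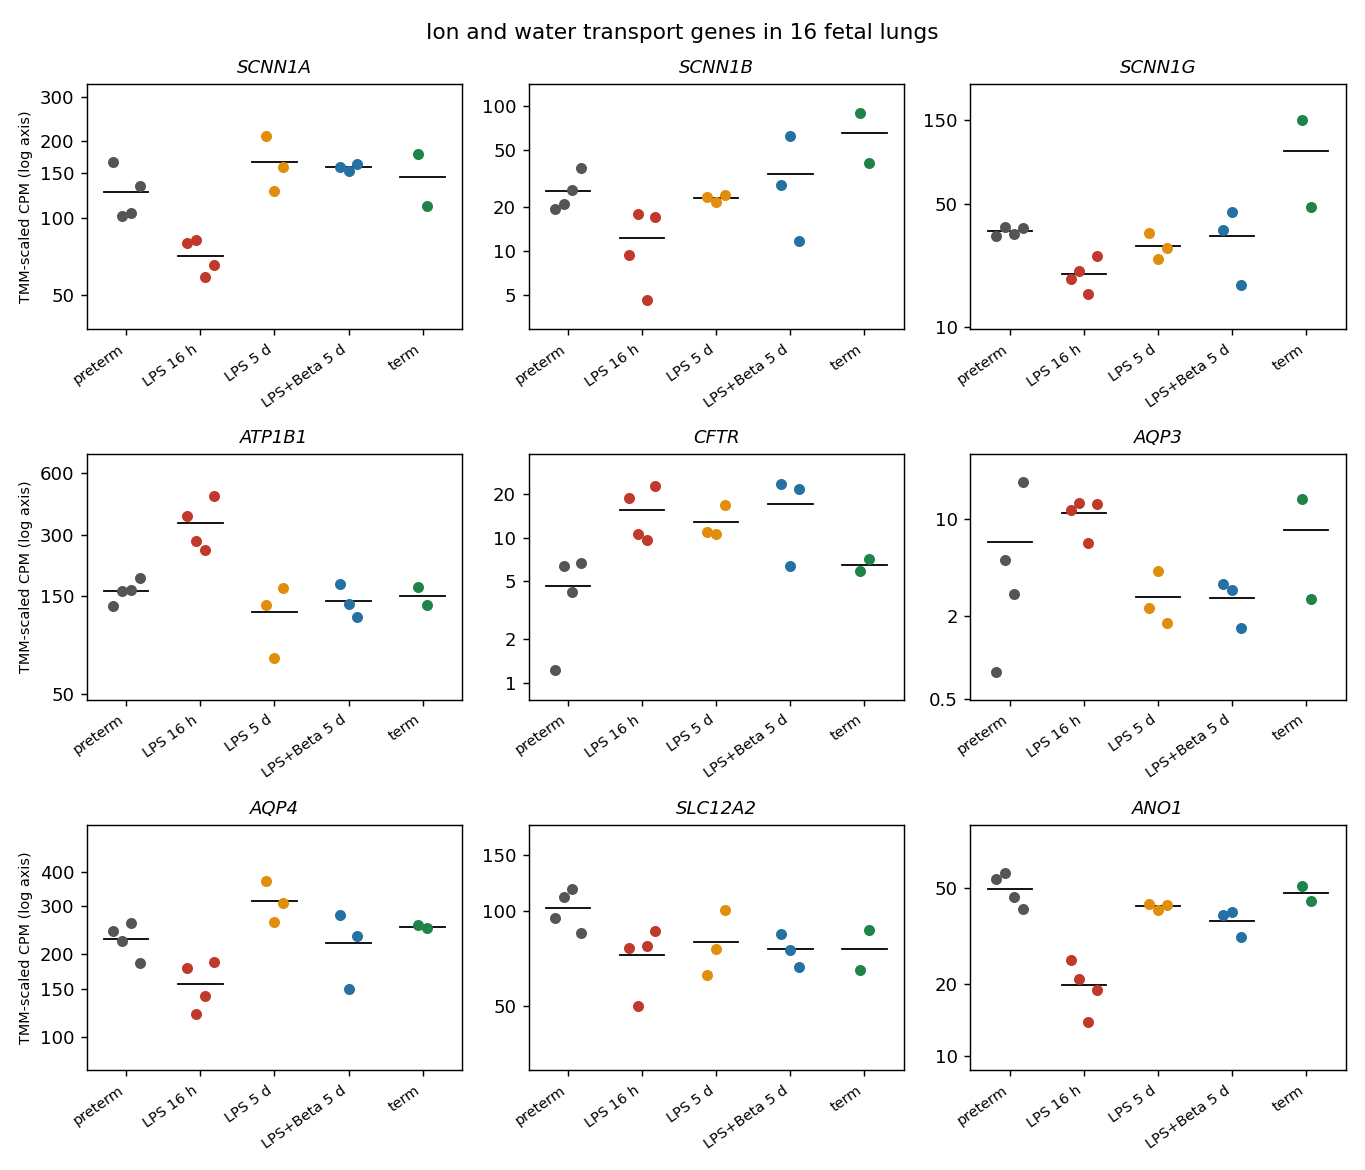
Each panel plots 1 gene as TMM-scaled CPM on a log axis, with 1 point per fetus and a black line at the mean of each of the 5 groups. The 4 LPS 16 hours points of ATP1B1 lie between 254 and 466 CPM, above all 12 other fetuses, and those of ANO1 lie between 13.9 and 25.2 CPM, below all others.

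SCNN1A encodes the alpha subunit of the sodium channel, without which the channel does not assemble. Its level in preterm controls was 165, 102, 105 and 134 CPM, and 16 hours after LPS it was 79.7, 81.7, 58.5 and 65.2 CPM. All 4 exposed fetuses were below all 4 controls, a fall by 0.81 on the log2 scale (SE 0.19, adjusted p = 0.0036, limma), which passed the p but not the 2-fold minimum. The values were 211, 128 and 158 CPM 5 days after LPS, 159, 153 and 163 CPM after LPS + Beta-Ac, and 179 and 111 CPM at term. These 3 groups overlapped with the preterm controls, with log2 differences of 0.39 (SE 0.21, adjusted p = 0.24), 0.35 (SE 0.21, adjusted p = 0.28) and 0.18 (SE 0.23, adjusted p = 0.74). In order of the mean, SCNN1A ran from LPS 5 days through LPS + Beta-Ac, term and preterm to LPS 16 hours, and only the last group stood apart from its neighbour.

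SCNN1B encodes the beta subunit. It measured 19.4, 21.2, 26.3 and 37.7 CPM in preterm controls and 9.44, 18.1, 4.59 and 17.3 CPM after 16 hours of LPS. The groups did not overlap, but the difference of -1.22 (SE 0.50) had an adjusted p of 0.068 and was not called. It was called without LPS 16 hours fetus 2 (-1.44, adjusted p = 0.048), and with LPS + Beta-Ac fetus 2 (-1.20, adjusted p = 0.040) or fetus 3 (-1.22, adjusted p = 0.035) out of the fit. With only total counts used for scaling, which shifts the median of all genes by -0.20 in this comparison, SCNN1A, SCNN1B and SCNN1G were all called lower and ATP1B1 was not called, so that 5 of 9 genes were called. SCNN1B was 23.7, 21.9 and 24.5 CPM at 5 days after LPS, a range inside that of the preterm controls (log2 difference -0.11, SE 0.54, adjusted p = 0.92). After LPS + Beta-Ac it spread from 11.7 to 62.6 CPM over 3 fetuses, with 28.6 CPM in the other, and the difference of 0.13 (SE 0.54, adjusted p = 0.91) turned to -0.44 without the fetus at 62.6 CPM.

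SCNN1G encodes the gamma subunit. The preterm controls were close together at 32.9, 37.0, 33.6 and 36.4 CPM, with a coefficient of variation of 5.81%. The 4 LPS 16 hours fetuses were lower, at 18.7, 20.7, 15.5 and 25.3 CPM, with no overlap, and the difference of -0.82 (SE 0.32, adjusted p = 0.055) was not called. At 5 days the levels were 34.4, 24.3 and 28.2 CPM after LPS and 35.7, 45.1 and 17.3 CPM after LPS + Beta-Ac, with differences of -0.28 (SE 0.35, adjusted p = 0.65) and -0.20 (SE 0.35, adjusted p = 0.75). Term controls had 151 and 48.2 CPM. Both were above all preterm controls, with a log2 difference of 1.29 (SE 0.39, adjusted p = 0.082) that was not called. Most of it rests on term control 1: without term control 1 the difference was 0.46 (adjusted p = 0.60), without term control 2 it was 2.11 and was called, and with LPS + Beta-Ac fetus 3 left out it stayed at 1.29 and was also called. SCNN1B at term was 89.6 and 40.4 CPM, also above every preterm control, with a difference of 1.25 (SE 0.61, adjusted p = 0.29).

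The beta and gamma subunits followed each other more closely than any other pair of the 9 genes. Over the 16 animals the Pearson correlation of their log2 CPM was 0.88, the highest of 36 pairs, and with the group means removed it was 0.79. SCNN1A with SCNN1B gave 0.60 and SCNN1A with SCNN1G 0.51, or 0.26 and 0.42 with the group means removed. These are descriptions over animals that share their libraries. Relative to the mean of the preterm controls, the log2 ratio of SCNN1A to SCNN1G in single animals was 0.57 to 0.79 at 5 days after LPS, above the highest preterm control at 0.50. After LPS + Beta-Ac it was -0.07 to 1.41, which overlapped with the preterm range, and it was -1.59 and -0.62 at term, below the lowest preterm control at -0.36. At 16 hours the same ratio was -0.46 to 0.26, around the preterm mean.

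ATP1B1, the pump's beta 1 subunit, went the other way from the sodium channel at 16 hours. It was 134, 160, 161 and 184 CPM in preterm controls and 370, 281, 254 and 466 CPM after 16 hours of LPS. The lowest exposed fetus was above the highest control, and the rise was 2.10-fold (log2 difference 1.07, SE 0.23, adjusted p = 0.0021). Its margin over the 2-fold minimum was small: without LPS 16 hours fetus 4 the log2 difference was 0.93, without preterm control 1 it was 0.99, and with total counts only it was 0.87, each with an adjusted p still under the threshold. At 5 days the values were 137, 74.7 and 165 CPM after LPS and 172, 138 and 119 CPM after LPS + Beta-Ac, beside 166 and 136 CPM at term. None of these 3 groups differed from preterm controls at the threshold, with log2 differences of -0.42 (SE 0.25), -0.17 (SE 0.25) and -0.08 (SE 0.28).

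CFTR, the apical chloride channel mutated in cystic fibrosis, was higher after LPS at both times. It was low in preterm controls, at 1.22, 6.34, 4.19 and 6.70 CPM, and 18.6, 10.6, 9.66 and 22.5 CPM at 16 hours, a 3.68-fold rise (log2 difference 1.88, SE 0.52, adjusted p = 0.010) with no overlap. At 5 days LPS gave 10.9, 10.6 and 16.7 CPM, again above all controls, but the 3.19-fold difference (log2 1.67, SE 0.56) had an adjusted p of 0.060. LPS + Beta-Ac gave 23.4, 6.34 and 21.5 CPM, a 3.77-fold rise (log2 1.92, SE 0.56, adjusted p = 0.029) that was called although fetus 2 lay within the range of the controls. This call is not firm. It was lost with gestational age as a covariate (log2 1.74, adjusted p = 0.14), with only the 2 groups compared in the fit (log2 1.92, adjusted p = 0.11), and without LPS + Beta-Ac fetus 1, LPS + Beta-Ac fetus 3, preterm control 1 or preterm control 3, over which the log2 difference ranged from 1.38 to 1.95. The LPS 5 days difference was called without preterm control 4 (log2 1.93), and with LPS + Beta-Ac fetus 2 out of the fit (log2 1.70). The 16-hour call was lost with gestational age as a covariate (log2 1.65, adjusted p = 0.13), while all of its alternatives gave a rise of 1.35 to 2.14 with adjusted p from 0.0050 to 0.13. Term controls had 5.85 and 7.12 CPM, which overlapped with the preterm controls (log2 0.73, SE 0.63, adjusted p = 0.59).

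The other chloride genes did not follow CFTR. ANO1, the calcium-activated channel, was 54.7, 57.8, 46.1 and 41.1 CPM in preterm controls and 25.2, 20.9, 13.9 and 18.9 CPM at 16 hours. It fell by 1.36 on the log2 scale (SE 0.16, adjusted p = 1.12e-05), a 2.56-fold lower level, and was called under all 27 alternatives run for it. At 5 days ANO1 was 42.9, 40.5 and 42.7 CPM after LPS and 38.5, 40.0 and 31.4 CPM after LPS + Beta-Ac, the last group below all preterm controls, with differences of -0.23 (SE 0.18, adjusted p = 0.43) and -0.44 (SE 0.18, adjusted p = 0.10). Term controls had 51.3 and 44.1 CPM (log2 -0.06, SE 0.20, adjusted p = 0.92).

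SLC12A2, the sodium, potassium and chloride cotransporter that loads the cell with chloride, was 94.7, 111, 117 and 85.2 CPM in preterm controls. It was 76.5, 50.2, 77.4 and 86.3 CPM at 16 hours, where 3 of 4 fetuses were below all controls, a fall by 0.51 (SE 0.18, adjusted p = 0.039) that passed without the fold minimum. After 5 days it was 62.9, 75.9 and 101 CPM with LPS and 84.9, 75.2 and 66.7 CPM with LPS + Beta-Ac, and 65.0 and 87.2 CPM at term. The log2 differences of -0.37, -0.43 and -0.43 (SE 0.20, 0.20 and 0.22) had adjusted p of 0.24, 0.16 and 0.33.

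AQP4 was lowest at 16 hours and highest 5 days after LPS. Preterm controls had 244, 223, 260 and 186 CPM and LPS 16 hours fetuses 178, 121, 141 and 187 CPM, ranges that touched at the upper end. The fall by 0.55 (SE 0.19, adjusted p = 0.029) passed without the fold minimum. After 5 days of LPS the levels were 371, 262 and 308 CPM, above every preterm control, but the difference of 0.46 (SE 0.20) had an adjusted p of 0.15. LPS + Beta-Ac gave 277, 150 and 234 CPM and term 255 and 249 CPM, within or around the preterm range, with differences of -0.09 (SE 0.20, adjusted p = 0.83) and 0.15 (SE 0.23, adjusted p = 0.79).

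By the coefficient of variation, AQP3 was the most variable of the 9 in preterm controls, at term and 5 days after LPS. SCNN1B varied most at 16 hours and after LPS + Beta-Ac. In the 4 preterm controls AQP3 was 0.784, 5.09, 2.88 and 18.5 CPM, a coefficient of variation of 117%, and at term 14.1 and 2.65 CPM. The 16-hour fetuses had 11.6, 13.2, 6.77 and 13.0 CPM, above 3 of the 4 controls, and the difference of 1.46 (SE 0.75, adjusted p = 0.14) was not called. Without preterm control 4 it was 2.21 and was called. The 5-day levels were 2.29, 4.18 and 1.76 CPM after LPS and 3.39, 3.08 and 1.62 CPM after LPS + Beta-Ac. Both differences from preterm, -0.58 with an SE of 0.81 and adjusted p of 0.70 and 0.69, turned to 0.17 without preterm control 4, and the term difference of 0.66 (SE 0.92, adjusted p = 0.77) turned to -0.53 without term control 1.

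Markers of airway cells, basal cells among them, moved with AQP3. The basal cell list holds 8 symbols, of which 5 have a row and 4 were tested, and its summed level was 10.8, 28.4, 12.6 and 59.0 CPM in preterm controls 1 to 4, and 32.3 and 5.44 CPM in term controls 1 and 2. In both control groups the fetus with the highest AQP3 was thus also the highest for these markers. KRT5, the keratin of basal cells, was 45.6 CPM in preterm control 4 and 0.532 to 19.2 CPM in the other 3. In the LPS 16 hours fetuses KRT5 was 4.83 to 23.6 CPM, inside the preterm range, with 6.28 CPM in fetus 3. Of the 4 tested basal markers 1 was called higher there, where 14.4% of all genes were called. At 16 hours the sum was 26.3 to 68.4 CPM, highest in fetus 3, which had the lowest AQP3 of its group, and at 5 days 7.37 to 21.7 CPM after LPS and 7.10 to 10.6 CPM after LPS + Beta-Ac. The correlation of AQP3 with the mean log2 CPM of the list was 0.85 over 16 animals, and also 0.85 with the group means removed, a description with no test. Airway secretory and gland markers gave 0.77, or 0.81 with the group means removed, and ciliated markers 0.47 and 0.72, so the relation is not particular to basal cells. Preterm control 4 and term control 1 were also the highest controls of their groups for the secretory and gland sum (574.7 and 307.5 CPM) and the ciliated sum (454.3 and 308.5 CPM). The part of airway cells in the AQP3 differences was not tested. With preterm control 4 and term control 1 left out together, the AQP3 rise at 16 hours was 2.21 (adjusted p = 0.0055, limma). Preterm control 4 had the highest AQP3 of the preterm controls, so leaving it out was bound to enlarge the rise. All LPS 16 hours fetuses were kept, so this fit cannot decide the part of airway cells.

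**Figure D2:**
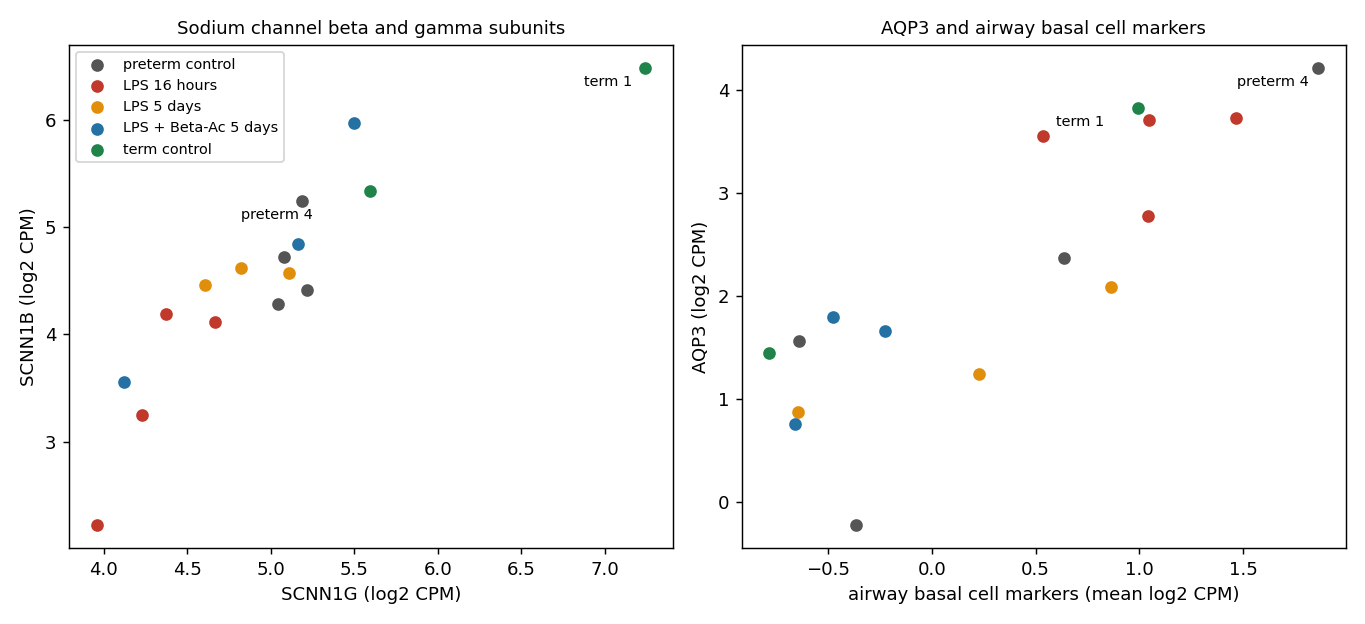
Left, log2 CPM of SCNN1B against SCNN1G, and right, log2 CPM of AQP3 against the mean log2 CPM of airway basal cell markers, with 1 point per fetus coloured by group. The left points lie along a rising line (r = 0.88) with term control 1 at its top, and on the right preterm control 4, term control 1 and the LPS 16 hours fetuses hold the 6 highest AQP3 values.

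The response to LPS differed between the times for 4 of the 9 genes, where 14.6% of all genes were called between LPS 16 hours and LPS 5 days (35.1% at adjusted p alone). SCNN1A was lower at 16 hours than at 5 days by 1.20 on the log2 scale (SE 0.21, adjusted p = 0.00036), AQP4 by 1.01 (SE 0.20, adjusted p = 0.0012) and ANO1 by 1.12 (SE 0.18, adjusted p = 0.00017). ATP1B1 was 2.80-fold higher at 16 hours (log2 1.48, SE 0.25, adjusted p = 0.00033). In each of these 4 genes, picked by their call, the fetuses of the 2 groups did not overlap. The share of all genes without overlap was not counted, so no weight is put on this. AQP3 was 4.11-fold higher at 16 hours, also without overlap, but its adjusted p was 0.065 (log2 2.04, SE 0.81). It was called in 4 of 27 alternatives, over which the adjusted p by limma ran from 0.0023 to 0.18. Among these 4, the size was the same with preterm control 1 (adjusted p = 0.022) or preterm control 4 (adjusted p = 0.020) out of the fit. SCNN1B was lower by 1.11 (SE 0.54, adjusted p = 0.13) and SCNN1G by 0.54 (SE 0.35, adjusted p = 0.25), and SLC12A2 differed by -0.14 (95% interval -0.56 to 0.28). CFTR showed no difference between the times at the threshold, with a log2 difference of 0.21 and a wide 95% interval from -0.99 to 1.41. AQP4 lies at the edge of the 2-fold minimum: its difference fell to between -0.89 and -0.99 with median-of-ratios scaling and without LPS 16 hours fetus 2, LPS 16 hours fetus 3 or LPS 5 days fetus 1. Without LPS 16 hours fetus 3, ANO1 also dropped to -0.98, which left 2 of 9 called.

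**Figure D3:**
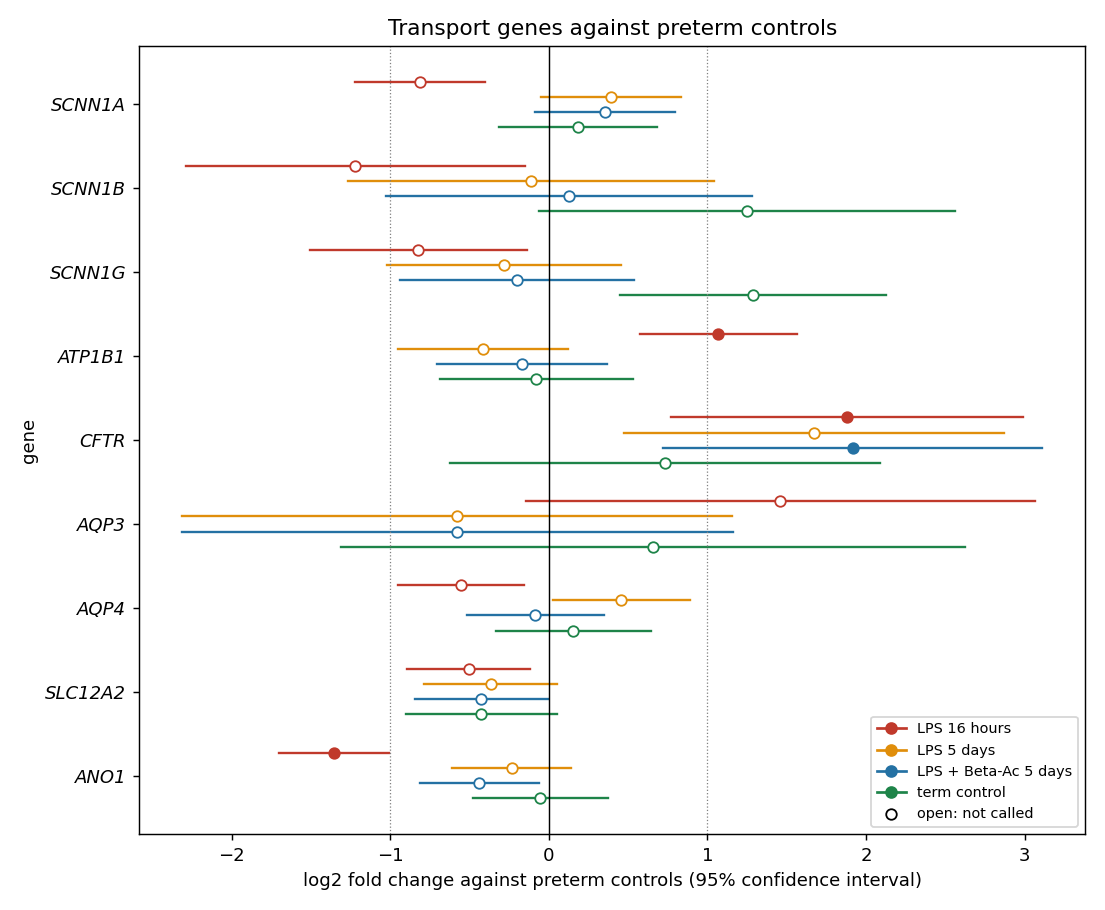
Log2 fold change of each gene against the preterm controls in the 4 other groups, with 95% confidence intervals from limma, where filled points passed both thresholds and dotted lines mark a 2-fold change. The filled points are ATP1B1, CFTR and ANO1 at 16 hours and CFTR after LPS + Beta-Ac.

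Adding Beta-Ac to LPS gave no called change in the 9 genes, where 0.0885% of all genes tested were called between LPS + Beta-Ac and LPS at 5 days. The limma test gave 1 of 9 at an unadjusted p under 0.05, where 4.81% of all genes passed. This was AQP4, which was lower with Beta-Ac by 0.54 (95% interval -1.0 to -0.08, unadjusted p = 0.025, adjusted p = 0.84), with 2 of the 3 Beta-Ac fetuses below all 3 fetuses with LPS alone. The interval for ATP1B1 was -0.32 to 0.82 around 0.25, and for CFTR -1.04 to 1.52 around 0.24, so a 2-fold difference in CFTR in either direction lies inside it.

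Against term controls, none of the 9 genes was called after LPS at 5 days, where 0.0625% of all genes were called, or after LPS + Beta-Ac, where 0.568% were called. In each of these 2 comparisons limma gave 1 of 9 genes at an unadjusted p under 0.05, where 11% and 14.5% of all genes passed. It was SCNN1G, lower than at term by 1.57 (SE 0.41) after LPS and by 1.49 (SE 0.41) after LPS + Beta-Ac. Without term control 2 the differences were -2.40 and -2.31, and each was called, and without term control 1 they were -0.75 (adjusted p = 0.43) and -0.67 (adjusted p = 0.42). SCNN1B was lower by 1.36 (SE 0.64) and 1.12 (SE 0.64). The 2 term controls differed 3.14-fold in SCNN1G, so the size of these differences depends on which of them is kept. The lack of a call does not show that exposed and term lungs have equal levels.

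Of the other genes of liquid transport, 65 were listed in 5 groups, 61 have a row and 60 were tested. At 16 hours 6 were called higher and 8 lower, 23.3% of those tested beside 14.4% of all genes, with a median log2 fold change of -0.09 as over all genes. After LPS at 5 days 3 of 60 were called (4.83% of all genes) and after LPS + Beta-Ac 2 of 60 (6.49% of all genes), shares near or under the background. At term 0 of 60 were called, and 11 of 60 had an unadjusted p under 0.05 by limma, beside 18.9% of all genes. No gene of these lists was called between LPS + Beta-Ac and LPS, and 3 of 60 had an unadjusted p under 0.05 by limma, beside 4.81% of all genes.

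Of the 13 tested genes that process or regulate the sodium channel, SPINT1 was called higher and WNK4 lower at 16 hours. That is 15.4% of the list, near the 14.4% of all genes. SPINT1, an inhibitor of the membrane proteases that cleave channel subunits, rose from 46.4 to 60.9 CPM in preterm controls to 102 to 131 CPM (log2 1.09, SE 0.16, adjusted p = 6.94e-05). WNK4, a kinase that regulates ion transporters, fell from 11.7 to 14.7 CPM to 5.26 to 7.49 CPM (log2 -1.03, SE 0.18, adjusted p = 0.00041), and was at the edge of 2-fold in 9 alternatives. At 5 days none of the 13 was called, and 5 of 13 passed at adjusted p alone in each group, beside 14.7% of all genes after LPS and 17.3% after LPS + Beta-Ac. These included SPINT1, at 0.85 after LPS and 0.94 after LPS + Beta-Ac, and KLF15, a steroid-inducible transcription factor named after its values were seen, at 0.97 and 0.90. KLF15 was also higher at term by 0.86 (adjusted p = 0.033). SGK1, the kinase through which steroids raise channel activity and likewise chosen after its values were seen, was 52.1 to 197 CPM in preterm controls and overlapped with them in every group.

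Of the 9 tested pump subunits and FXYD regulators, 1 was called higher and 1, FXYD3, lower at 16 hours. This makes 22.2% of the list, beside 14.4% of all genes. FXYD3, a small modulator of the pump, turned between the times. It was 16.6 to 32.1 CPM in preterm controls, 4.01 to 16.2 CPM at 16 hours (log2 -1.66, SE 0.36, adjusted p = 0.0022) and 40.7 to 54.7 CPM 5 days after LPS (log2 1.29, SE 0.39, adjusted p = 0.038). After LPS + Beta-Ac it was 41.4 to 47.9 CPM and missed the threshold. The 5-day call was lost in 7 of 27 alternatives: gestational age as a covariate, each LPS 5 days fetus left out in turn, and preterm control 1, 2 or 3 left out, with log2 differences of 1.19 to 1.51 over all alternatives.

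Of the 12 tested steroid and hormone genes, FKBP5 rose and HSD11B2 and AVPR2 fell at 16 hours. They are 25% of the list, beside 14.4% of all genes. FKBP5, a glucocorticoid-inducible chaperone, was 13.9 to 19.2 CPM in preterm controls, 58.2 to 89.0 CPM at 16 hours (log2 2.14, SE 0.16, adjusted p = 5.3e-08) and 15.1 to 18.1 CPM 5 days after LPS. After LPS + Beta-Ac it was 22.7 to 25.2 CPM, above every preterm control (log2 0.52, adjusted p = 0.046). HSD11B2, the enzyme that inactivates cortisol, fell from 11.0 to 23.0 CPM to 3.64 to 6.59 CPM (log2 -1.96, SE 0.26, adjusted p = 3.03e-05). AVPR2, a vasopressin receptor, was low throughout and fell by 1.48 (SE 0.38, adjusted p = 0.0062) with groups that overlapped, a call lost with gestational age as a covariate (-1.20, adjusted p = 0.10). ADRB1, a beta-adrenergic receptor, did not change at the threshold at 16 hours but was lower at 5 days in both groups. It was 15.2 to 29.3 CPM in preterm controls, 6.61 to 15.5 CPM after LPS (log2 -1.23, SE 0.32, adjusted p = 0.019) and 8.05 to 11.8 CPM after LPS + Beta-Ac (log2 -1.23, SE 0.32, adjusted p = 0.017), while term controls had 16.1 and 29.5 CPM. The LPS group touched the controls at 15.5 CPM and the 2 values share those controls. The first call was lost without LPS 5 days fetus 1 (-0.94, adjusted p = 0.11), LPS 5 days fetus 2, preterm control 1 or preterm control 2, and the second without LPS + Beta-Ac fetus 1 or fetus 2 (-1.07, adjusted p = 0.081).

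Of the 20 tested chloride, bicarbonate and potassium genes, SLC26A4 and KCNE3 were called higher and CLIC5 and CA2 lower at 16 hours. Their share of the list was 20%, beside 14.4% of all genes. SLC26A4, the apical anion exchanger pendrin, was 0.213 to 0.479 CPM in preterm controls and 3.96 to 6.54 CPM at 16 hours (log2 3.52, SE 0.28, adjusted p = 1.38e-07), and all 8 fetuses of the 5-day and term groups were between 0.194 and 0.463 CPM. These low levels lie near the 0.371 CPM of the filter, so the size of the SLC26A4 change rests on few reads in the controls. KCNE3, a potassium channel subunit that works with chloride secretion, rose from 5.15 to 7.27 CPM to 11.5 to 18.4 CPM (log2 1.19, SE 0.19, adjusted p = 0.00017). It was 9.48 to 14.0 CPM after LPS + Beta-Ac (log2 1.01, SE 0.21, adjusted p = 0.0035), a call that was lost to the fold minimum in 8 of 27 alternatives. CLIC5, abundant in alveolar type 1 cells, fell from 663 to 851 CPM to 189 to 235 CPM (log2 -1.94, SE 0.11, adjusted p = 6.03e-09). CA2, a carbonic anhydrase, fell from 87.2 to 120 CPM to 37.1 to 69.7 CPM at 16 hours (log2 -1.05, SE 0.20, adjusted p = 0.00087) and 35.5 to 55.8 CPM after LPS at 5 days (log2 -1.25, SE 0.22, adjusted p = 0.0019). After LPS + Beta-Ac CA2 was 46.6 to 75.9 CPM, also below every preterm control, but was not called.

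Of the 6 tested aquaporins outside the 9 genes, AQP5 and AQP2 were called lower and AQP9 higher at 16 hours. The share called was 50% of this short list, beside 14.4% of all genes. None was called in the other groups against preterm controls. AQP5, the apical water channel of alveolar type 1 cells, was 74.1 to 132 CPM in preterm controls and 11.4 to 41.0 CPM at 16 hours (log2 -2.45, SE 0.44, adjusted p = 0.00059), 122 to 128 CPM 5 days after LPS and 44.7 to 185 CPM after LPS + Beta-Ac. AQP2 was 1.35 to 3.84 CPM in preterm controls and 0.116 to 0.425 CPM at 16 hours, the latter near the 0.371 CPM of the filter. AQP9, known from leukocytes and liver, was 0 to 0.106 CPM in preterm controls and 0.665 to 2.13 CPM at 16 hours, and no fold change is given against so few counts. AQP1, PRSS8, FXYD2 and KCNE1 were listed and matched no row, so they were not analysed here.

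**Figure D4:**
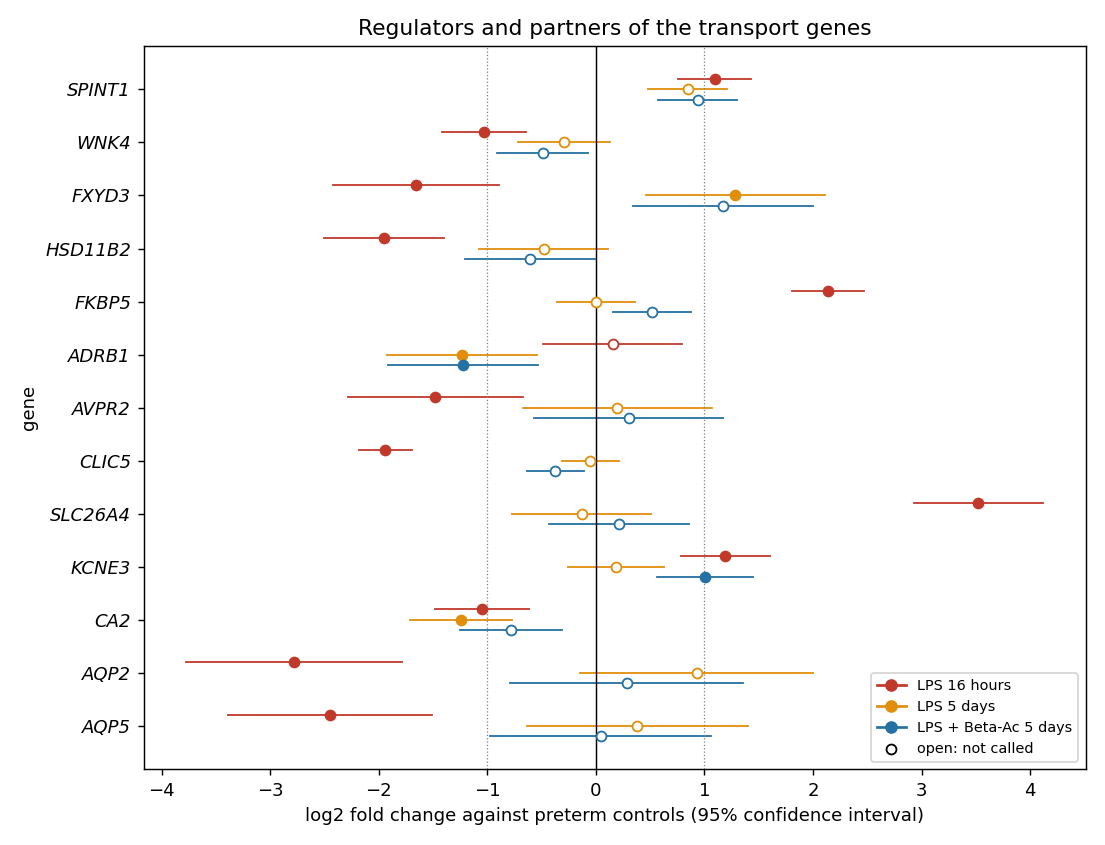
Log2 fold change against preterm controls, with 95% confidence intervals from limma, of 13 genes of the transport lists called in at least 1 of the 3 LPS groups. At 16 hours SLC26A4 and FKBP5 are farthest to the right and AQP2 and AQP5 farthest to the left, and FXYD3 changes side between 16 hours and 5 days.

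Cell type markers moved at the same time as these genes. Of all genes tested, 14.4% were called at 16 hours against preterm controls, and 38.5% passed at adjusted p alone. At 5 days 4.83% were called after LPS and 6.49% after LPS + Beta-Ac. The counts of markers below were not tested against these shares. At 16 hours 5 of 8 alveolar type 1 markers were called lower, and their summed level was 2213 to 2557 CPM beside 4375 to 5016 CPM in preterm controls. Of the 8 alveolar type 2 markers 4 were called higher, at sums of 9257 to 22430 CPM beside 6360 to 11050 CPM, and of the 8 myeloid markers 6 were called higher, at 2233 to 2840 CPM beside 150.1 to 262.7 CPM. Of the 9 markers shared by lung epithelia 1 was called, and their sum was 809 to 1219 CPM beside 680 to 918 CPM. At 5 days no alveolar type 1 marker was called in either LPS group, while 3 alveolar type 2 and 3 myeloid markers were called higher after LPS, and 5 and 7 after LPS + Beta-Ac. Of the 8 fibroblast and mesenchyme markers 6 were lower at 16 hours at adjusted p alone and 2 were called, with sums of 9605 to 13490 CPM beside 14080 to 22820 CPM. All 6 smooth muscle markers passed at adjusted p alone, 4 lower and 2 higher, with 1 called each way, and 2 of 7 endothelial markers were called lower. The part of these cell types in the differences of the transport genes was not tested.

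The mean log2 CPM of the 9 epithelial markers was 6.08 in preterm controls, 6.18 at 16 hours, 6.57 after LPS at 5 days and 6.47 after LPS + Beta-Ac. At 16 hours its members went both ways, 3 higher and 2 lower at adjusted p alone, so subtracting this mean shifts each gene only slightly there and bears little on the share of epithelium. At 5 days the subtraction matters more. Relative to these markers the LPS 5 days difference from preterm controls was -0.10 for SCNN1A and -0.04 for AQP4, both above 0 without it, and 1.18 for CFTR, with groups that then overlapped. Between LPS 16 hours and LPS 5 days the relative differences were -0.81 for SCNN1A, 1.87 for ATP1B1, -0.73 for ANO1 and -0.62 for AQP4, and the groups then overlapped for AQP4. Within single animals, the log2 ratio of ATP1B1 to SCNN1A relative to the preterm mean was 1.42 to 2.48 at 16 hours and -0.66 to 0.29 in preterm controls. At 5 days it was -1.14 to -0.30 after LPS and -0.82 to -0.24 after LPS + Beta-Ac. The ratio of CFTR to ANO1 was 2.68 to 3.91 at 16 hours and 1.69 to 2.30 at 5 days after LPS, above the highest preterm control at 1.05 in all 7 fetuses. After LPS + Beta-Ac it was 1.01 to 3.11, with 1 of 3 fetuses inside the preterm range.

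The alveolar type 1 marker list was the marker list closest to SCNN1B and SCNN1G, and over the 16 animals also to SCNN1A, AQP4 and ANO1. The correlation of log2 CPM with the mean of that list over 16 animals was 0.81 for SCNN1B and 0.75 for SCNN1G, and 0.78 and 0.67 with the group means removed. For SCNN1A, AQP4 and ANO1 it was 0.75, 0.65 and 0.87, and -0.14, -0.38 and 0.13 with the group means removed. Other lists were nearly as strong with the opposite sign, at -0.85 for ANO1 with myeloid markers and -0.64 for AQP4 with erythroid markers. With the group means removed, SCNN1A was closest to the markers shared by lung epithelia, at 0.67.

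Among all tested genes with a symbol, those most like each of the 9 over the 16 animals were found by the Pearson correlation of log2 CPM; the animals share groups and libraries. For SCNN1A they were ABCB9, TENT5B and OPLAH (0.93, 0.92 and 0.92). For SCNN1B they were S100A6, SCNN1G and OMA1 (0.91, 0.88 and 0.86), and for SCNN1G they were MLXIPL, TMOD1 and SCNN1B (0.91, 0.90 and 0.88). ATP1B1 was most like ADIPOR2, SH2D5 and WDR12 (each 0.90). CFTR was most like FSD1L, EIF4EBP3 and SLC28A3 (0.90, 0.88 and 0.85). AQP3 was most like SELENOI, INHBB and GALNT15 (0.91, 0.91 and 0.89), and with the group means removed these stayed at 0.87, 0.88 and 0.91. AQP4 was most like LRCH1, EVA1A and SBK3 (0.88, 0.86 and 0.86), SLC12A2 like GABPA, PIAS2 and OSBPL8 (0.89, 0.89 and 0.88) and ANO1 like ZNF821, MFN1 and TBX2 (0.95, 0.94 and 0.94). With the group means removed, the 3 of ANO1 fell to 0.68, 0.74 and 0.51 and those of SLC12A2 stayed at 0.84, 0.92 and 0.84. SCNN1B and SCNN1G were the only pair of the 9 in which each named the other. The rhesus RefSeq annotation of assembly T2T-MMU8v2.0 is of another build than the counts. In it, 0 protein-coding genes and 2 long non-coding RNA genes lie between SCNN1B and SCNN1G. Whether their position bears on the correlation was not tested.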

How the data were processed

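Poly(A)-selected RNA of snap-frozen left lung was sequenced as 75 bp paired-end reads. The authors assigned the reads to the rhesus build Mmul_10 with kallisto and summarized them per gene with tximport, and the authors used DESeq2 for their comparisons. Their versions and the annotation release: not given in the sources used here. For the extraction, labels name Trizol and the study's methods a column kit. The deposited table gives, for every animal and Ensembl identifier, an unnormalized read count in whole numbers, and 629 of 22515 genes are at 0 in every animal. The unit could not be read automatically as counts from this layout and was recorded as other, so the count models planned as an alternative were not run.

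Counts were scaled by TMM (trimming 30% of log ratios and 5% of abundances), turned into log2 CPM with a prior count of 2, and fitted by limma 3.58.1 in R 4.3.3, using its trend and robust settings and 1 mean per group over 16 animals. Testing required 0.371 CPM or more in 2 or more animals and a summed count of 15. Calls need a Benjamini-Hochberg adjusted p below 0.05 over 19199 genes and 2-fold, the thresholds of the study's methods, and all tests are two-sided. Standard errors and 95% intervals come from the same fit. Symbols were matched by Ensembl identifier (17256 with a symbol) and replicates are separate fetuses, numbered in the order of their records. Replicate pairs differed by a chi-square of 32.5 to 172.6 per degree of freedom, far beyond sampling noise. The script was tested on simulated data. The 9 genes, the transport lists and the marker lists were chosen with earlier results of these data known. Named genes are the 9, those of the transport lists called against preterm controls (1 of which is counted but not reported here), the 3 most correlated with each of the 9, and others said to be chosen after their values were seen.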

Additional observations from a re-analysis of the deposited data

Results flagged for a closer look

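The effect of LPS differed between 16 hours and 5 days, by limma between those groups, for 4 of the 9 genes. Over all genes tested, 14.6% were called between these groups and 35.1% passed at adjusted p alone. The log2 difference was -1.20 for SCNN1A (adjusted p = 0.00036), 1.48 for ATP1B1 (adjusted p = 0.00033), -1.01 for AQP4 (adjusted p = 0.0012) and -1.12 for ANO1 (adjusted p = 0.00017). At 5 days none of the 4 differed from preterm controls at the threshold (log2 0.39 for SCNN1A, -0.42 for ATP1B1, 0.46 for AQP4 and -0.23 for ANO1, adjusted p = 0.24, 0.31, 0.15 and 0.43). Relative to the 9 epithelial markers the difference between the times was -0.81 for SCNN1A, 1.87 for ATP1B1, -0.62 for AQP4, whose groups then overlapped, and -0.73 for ANO1. The 16-hour libraries were also the deepest. With libraries thinned to the smallest total, 4 of 9 genes were called in this comparison. No single fetus lay apart from its group by Dixon's criterion in 18 groups of 4 tested, of which chance alone would flag about 1 in 20.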

How the results depend on the processing

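Each result was recomputed with other scalings, filters and prior counts, limma-voom, no fold minimum, gestational age as a covariate, only the groups compared, and each fetus left out. Thinned libraries, and the fit without preterm control 4 and term control 1, were chosen after seeing the data. The count models planned as alternatives were not run. No paired analysis was possible because the labels give no numbers shared between groups. The 3 genes called at 16 hours became 6 without the fold minimum and 5 with total counts only. The 1 gene called after LPS + Beta-Ac became 0 with gestational age and with only the groups compared. The 0 after LPS at 5 days became 1 without preterm control 4 and term control 1. Leaving out 1 fetus gave 2 to 4 genes at 16 hours, 2 to 5 between the LPS times, 0 to 1 after LPS at 5 days, 0 to 1 after LPS + Beta-Ac, 0 to 1 at term, and 0 to 1 for each 5-day group against term. No alternative gave a call for LPS + Beta-Ac against LPS. Differences that changed sign were not called. For ANO1 at term, total counts only gave 0.013 and leaving out 1 fetus -0.16 to 0.053. Without preterm control 4 and term control 1, AQP3 was 0.17 after LPS and 0.17 after LPS + Beta-Ac at 5 days, SCNN1A -0.12 at term and SCNN1B 0.078 after LPS at 5 days. Leaving out 1 fetus moved AQP3 from -1.31 to 0.17 after LPS + Beta-Ac, -1.32 to 0.17 after LPS at 5 days and -0.53 to 1.84 at term. AQP4 after LPS + Beta-Ac ran from -0.25 to 0.19, ATP1B1 at term from -0.22 to 0.061 and SCNN1A at term from -0.16 to 0.53. SCNN1B ran from -0.44 to 0.74 after LPS + Beta-Ac and -0.24 to 0.078 after LPS at 5 days, and SCNN1G from -0.46 to 0.20 after LPS + Beta-Ac. Between LPS + Beta-Ac and LPS, ATP1B1 ran from -0.089 to 0.48 and CFTR from -0.093 to 0.84. Between the LPS times, CFTR ran from -0.012 to 0.42 and SLC12A2 from -0.30 to 0.043. The causes were not tested. AQP3 and CFTR had the lowest counts of the chosen genes, 18 and 28, both in preterm control 1. Counting alone gives coefficients of variation of 23.6% and 18.9% at these counts. Between the preterm controls the coefficients of variation were larger, at 117% for AQP3 and 54.6% for CFTR.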
